A study of Homo sapiens with 14 samples.

Results

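The 9 genes described here encode secreted signals of inflammation and vessel tone and the receptors that read them: the interleukin-6 family cytokines LIF, IL6 and IL11 with the receptor chains IL6ST and LIFR, the chemokines CXCL8 and CCL2 with the scavenger receptor ACKR3, and EDN1, the precursor of endothelin-1. They were chosen by name, every probe set that the array annotation assigned to them was taken, and this gave 15 probe sets of 9 genes among 22215 probe sets and 11963 genes in all. IL6ST had 5 probe sets, IL11 and CXCL8 had 2 each and the other 6 genes had 1 each. Where a gene had several, its leading probe set, the one with the highest mean over the arrays, stood for the gene, and others are given where a result turns on them.

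RNA came from serum-starved U2OS, a human osteosarcoma cell line, in which the transcription factor E2F1 was stably expressed as a fusion to an estrogen receptor domain (ER-E2F1) that 4-hydroxytamoxifen (OHT) activates. All cells were infected with a lentivirus 24 h before serum was withdrawn, and serum-free medium had been on for 24 h before 20 nM OHT was given for 6 h or left out. The 6 groups were shFOXO33 with OHT (2 arrays), shFOXO707 with OHT (2 arrays), a scrambled hairpin with OHT (4 arrays), shFOXO33 without OHT (1 array), shFOXO707 without OHT (1 array) and the scrambled hairpin without OHT (4 arrays). Both shFOXO hairpins were directed against FOXO1 and FOXO3, forkhead factors that act in stress responses and growth control, and their arrays are called knockdown cells where they are pooled. All cells carried ER-E2F1, so an effect of OHT alone and one of activated E2F1 cannot be told apart, and the labels do not say whether arrays of a group were separate cultures, so each p-value speaks only of the spread among these arrays, which may be technical.

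The interleukin-6 family cytokines bind a receptor complex that contains IL6ST (gp130), the shared signalling chain, which LIFR joins for LIF and which ligand-specific chains join for IL6 and IL11. The complex activates JAK kinases and the transcription factor STAT3, and SOCS3 limits the signal by negative feedback. Chemokines draw leukocytes to a tissue, ACKR3 takes up the chemokine CXCL12 without the usual G-protein signal, and endothelin-1 is a vasoconstrictor peptide that ECE1 and FURIN cut from its precursor.

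On the arrays, a signal is the linear MAS5 intensity of a probe set, with a trimmed mean of 500 on each array, and differences are on the log2(signal + 16) scale, which understates the change of dim genes. A gene was called changed at a Benjamini-Hochberg adjusted p under 0.05 from limma, over all 22215 probe sets. Signals of different probe sets are not comparable as amounts. Detection calls were not used here, so whether a dim signal lay above background was not judged. This holds for LIF, ACKR3, EDN1, CCL2, CXCL8 and IL6 in scrambled cells with OHT, and a difference against such a signal is not an exact fold. It also holds in scrambled cells without OHT for IL6 (37.8 to 54.9), CXCL8 (55.2 to 75.6) and CCL2 (39.3 to 80.4). For these genes both sides of the OHT difference were dim. For scale, the brightest blood cell markers, CD3E and HBB, at 33.4 to 84.9 and 56.2 to 109 over the 14 arrays, cover signals like these or higher ones. The other blood cell markers had lower medians and ran at 14.6 to 65.3 (PTPRC), 5.32 to 43.4 (MS4A1), 0.393 to 21.5 (LYZ) and 1.3 to 23.7 (CD14). Over the 14 arrays, 6 of the 9 genes had a mean (taken on the log2 scale) above the 40th percentile of probe sets, a signal of 79.1, and IL6, CXCL8 and CCL2 lay below it. FOXO1 fell by 1.29 and FOXO3 fell by 1.81 (adjusted p = 8.85e-05 and 0.00136, limma) in knockdown against scrambled cells with OHT. Without OHT, FOXO1 fell by 0.99 (adjusted p = 0.00838, limma), and FOXO3 had a difference of -1.13 (adjusted p = 0.122). By hairpin, on 1 array each without OHT, FOXO3 differed from scrambled cells by -1.59 with shFOXO33 and by -0.68 with shFOXO707. FOXO3 with OHT differed by 1.35 between shFOXO707 and shFOXO33 cells (adjusted p = 8.27e-08), with more left in shFOXO707 cells. E2F1 itself was not called in any of these comparisons or with OHT. In scrambled cells, FOXO1 rose by 2.12 and FOXO3 rose by 1.96 with OHT (adjusted p = 2.29e-08 and 5.92e-05, limma). The mean FOXO1 signal was 163 with shFOXO33 and OHT and 236 with shFOXO707 and OHT, against 103 in scrambled cells without OHT. FOXO3 gave 307 and 810 in these hairpin groups, against 449. The knockdown with OHT was thus relative to scrambled cells with OHT. Of the osteoblast markers, 5 of 7 lay above the 40th percentile, while 0 of 6 blood cell markers and 0 of 6 endothelial markers did. Of the fibroblast markers 4 of 5 did, and of the epithelial markers 3 of 5, so these lists do not single out osteoblasts. The median signal was 115 to 120 on arrays with OHT and 137 to 143 on arrays without it, and the median of all genes shifted by -0.17 with OHT in scrambled cells.

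Promoter windows were looked up for the members in RefSeq (GRCh38.p14), each running from 250 bases before to 50 bases after an annotated start, and 6 of the 9 genes had at least 1 window, 10 windows in all. The windows of 4 genes are shown because these genes moved in different directions with OHT, EDN1, IL6 and CXCL8 downwards and IL11 upwards. They are EDN1 on chr6:12290111-12290410 (plus strand, the third of its 3 windows), IL6 on chr7:22726950-22727249 (plus strand), CXCL8 on chr4:73740319-73740618 (plus strand) and IL11 on chr19:55370414-55370713 (minus strand). The EDN1 window was picked from its 3 because it held the most motif matches. LIFR and IL6ST, which rose with OHT, also had windows, and these are not shown. Each is written 5′ to 3′ on the gene's strand, and capitals mark the motif matches named after them.
EDN1: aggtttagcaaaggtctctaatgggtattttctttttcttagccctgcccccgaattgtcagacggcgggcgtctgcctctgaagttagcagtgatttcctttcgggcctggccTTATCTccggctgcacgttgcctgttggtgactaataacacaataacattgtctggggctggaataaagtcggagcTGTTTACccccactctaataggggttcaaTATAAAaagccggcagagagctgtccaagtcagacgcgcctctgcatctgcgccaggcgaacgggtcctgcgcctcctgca
IL6: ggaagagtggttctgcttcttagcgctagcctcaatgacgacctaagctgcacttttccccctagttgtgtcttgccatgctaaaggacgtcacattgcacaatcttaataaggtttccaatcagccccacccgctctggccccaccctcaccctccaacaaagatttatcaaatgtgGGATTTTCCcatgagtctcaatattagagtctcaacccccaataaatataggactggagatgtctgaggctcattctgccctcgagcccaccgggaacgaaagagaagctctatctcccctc
CXCL8: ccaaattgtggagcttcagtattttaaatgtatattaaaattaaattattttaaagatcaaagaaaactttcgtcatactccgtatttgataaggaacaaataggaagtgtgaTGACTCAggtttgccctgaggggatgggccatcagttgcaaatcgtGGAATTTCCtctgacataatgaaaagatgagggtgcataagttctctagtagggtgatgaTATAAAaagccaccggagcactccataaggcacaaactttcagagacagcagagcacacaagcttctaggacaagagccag
IL11: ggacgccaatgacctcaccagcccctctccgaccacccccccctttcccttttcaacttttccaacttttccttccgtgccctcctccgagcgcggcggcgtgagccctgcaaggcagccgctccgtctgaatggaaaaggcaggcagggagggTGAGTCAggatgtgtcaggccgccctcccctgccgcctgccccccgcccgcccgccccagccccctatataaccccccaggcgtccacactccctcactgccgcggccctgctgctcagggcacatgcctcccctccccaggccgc

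The motifs searched on both strands were TGANTCA for AP-1, TTTNNCGC for E2F, GTAAACA for FOXO factors, GGANTTTCC for NF-kB, TTCNNNGAA for STAT factors and GGAATG for TEAD factors. To these were added AGATAA as the motif of GATA factors, and the core promoter element TATAAA, the TATA box. The EDN1 window held a FOXO match on the minus strand at -60 to -54, a GATA match on the minus strand at -136 to -131 and a TATA box at -31 to -26 relative to the start. In IL6, an NF-kB match lay at -72 to -64. The CXCL8 window held an AP-1 match at -137 to -131, an NF-kB match at -91 to -83 and a TATA box at -31 to -26. In IL11, an AP-1 match lay at -96 to -90. Of all 35116 promoters of the same length, 1.64% held the NF-kB motif, 7.71% the AP-1 motif, 3.42% the FOXO motif, 10.3% the GATA motif and 11.5% the TATA box. The other member windows held FOXO, STAT, TEAD and TATA box matches in LIFR, where the TATA box matches overlapped each other, and a TEAD match in EDN1, and the E2F motif had a match in 0 of the 10 windows, against 6.89% of all promoters. The STAT motif was in 7.66% and the TEAD motif in 14% of all promoters. The EDN1 window shown was picked for its matches, so the shares per promoter are not a like measure for it. The matches describe the letters in the windows and are not measured binding.

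The first comparison asked how the genes differed with OHT, which activates ER-E2F1, in scrambled cells. The cytokine gene IL11 and the receptor genes LIFR and IL6ST rose, whereas ACKR3, EDN1, LIF, CCL2, CXCL8 and IL6 fell, so 3 of the 9 genes were higher and 6 lower. Among all 11963 genes, 50.0% were called, 17.0% higher and 33.0% lower. The median difference was -1.19 over the 9 genes and -0.17 over all genes. With each array centred on its median, 7 of the 9 genes were called, since IL6 and CXCL8 were not, and the calls over all genes were 2894 higher and 2496 lower, against 2032 higher and 3945 lower as deposited. Quantile normalization gave 2336 higher and 3306 lower over all genes.

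LIF, a cytokine that keeps stem cells undifferentiated and acts on bone and muscle, had signals of 27.8, 41.5, 67.9 and 31.1 in scrambled cells with OHT, against 471, 386, 404 and 451 in scrambled cells without OHT. The 4 arrays with OHT were all lower than the 4 without, and the groups did not overlap. LIF fell by 2.98 ± 0.26 (SE; adjusted p = 3.09e-07, limma). In bulk RNA, fewer cells of a type and less RNA per cell cannot be told apart. The signals of ACKR3 were 37.1, 63.3, 48.7 and 49.4 with OHT, against 985, 989, 972 and 1102 without OHT. Again, all arrays with OHT were lower, and the groups were far apart. ACKR3 fell by 3.98 ± 0.26 (adjusted p = 1.02e-08, limma). EDN1 had 20.6, 20.8, 12.1 and 20.0 with OHT, against 314, 355, 391 and 417 without OHT. None of the arrays with OHT reached the lowest array without OHT. EDN1 fell by 3.49 ± 0.17 (adjusted p = 6.88e-10, limma).

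CCL2, which attracts monocytes, had signals of 7.83, 1.37, 2.59 and 6.44 with OHT, against 75.0, 79.8, 80.4 and 39.3 without OHT in scrambled cells. The groups did not overlap, and all signals with OHT were near 0 on this scale. CCL2 fell by 2.02 ± 0.21 (adjusted p = 1.89e-06, limma). CXCL8 (interleukin-8), a neutrophil attractant, had 33.7, 26.8, 4.54 and 24.0 with OHT, against 73.5, 75.6, 55.2 and 64.4 without OHT. All 4 arrays with OHT were lower than the 4 without. CXCL8 fell by 1.19 ± 0.41 (adjusted p = 0.0298, limma), and its other probe set gave -0.43 (adjusted p = 0.377). The CXCL8 call was lost with each array centred on its median (-0.96, adjusted p = 0.0781), with quantile normalization (-1.07, adjusted p = 0.0532), with a pseudocount of 64 (-0.61, adjusted p = 0.102), and without scrambled no-OHT array 1 (adjusted p = 0.0643), 2 (0.0661) or 4 (0.0540) or scrambled OHT array 3 (0.101), in limma throughout. IL6, an inflammatory cytokine, had 14.8, 21.5, 20.0 and 32.4 with OHT, against 40.3, 37.8, 54.9 and 51.8 without OHT. The groups did not overlap, although both were dim. IL6 fell by 0.71 ± 0.21 (adjusted p = 0.0118, limma), and centring each array on its median gave -0.49 (adjusted p = 0.0794).

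IL11, a cytokine that signals through IL6ST, was the member that rose most with OHT. Its leading probe set gave signals of 312, 282, 325 and 313 with OHT, against 128, 96.2, 194 and 115 without OHT in scrambled cells. All 4 arrays with OHT were higher, and the groups did not overlap. IL11 rose by 1.16 ± 0.21 (adjusted p = 0.000343, limma). Its other probe set gave 112, 129, 118 and 128 with OHT, against 108, 88.2, 98.4 and 76.7 without OHT, a difference of 0.35 (adjusted p = 0.129) that was not called. LIFR, the LIF receptor chain, had 429, 427, 367 and 423 with OHT, against 286, 292, 271 and 261 without OHT. The groups did not overlap, and the array at 367 was the lowest with OHT. LIFR rose by 0.54 ± 0.11 (adjusted p = 0.000638, limma). IL6ST gave 2970, 2823, 2961 and 2952 with OHT, against 2176, 2344, 2221 and 2467 without OHT. All 4 arrays with OHT were higher. IL6ST rose by 0.35 ± 0.053 (adjusted p = 7.08e-05, limma), and 3 of its 5 probe sets were called higher, with differences from 0.31 to 0.38, while the other 2 gave 0.12 and 0.17. LIF thus fell in cells in which both chains of its receptor rose.

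**Figure D1:**
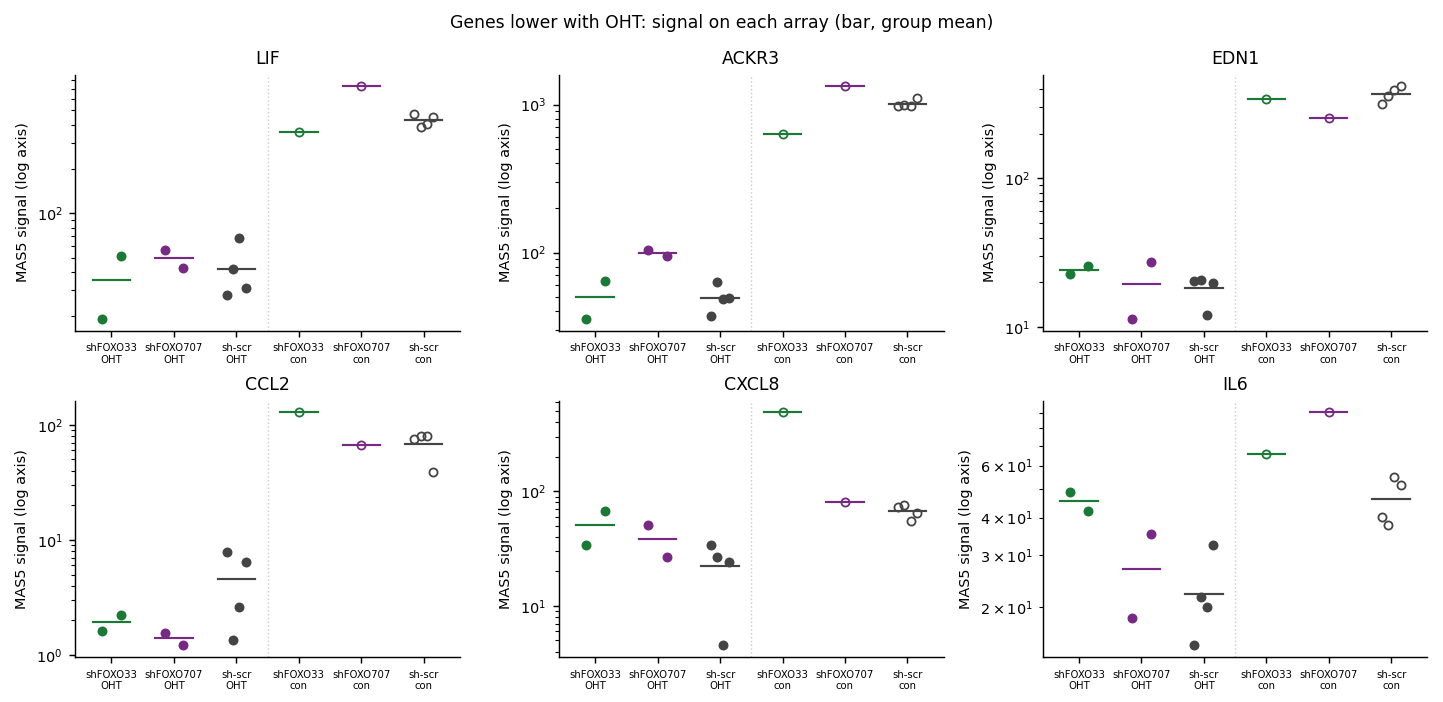
MAS5 signal (linear units on a log axis) of LIF, ACKR3, EDN1, CCL2, CXCL8 and IL6 on each of the 14 arrays, 1 point per array in 6 groups, filled with OHT and open without it; horizontal bars are group means. In every panel the scrambled arrays with OHT lie below those without OHT, and the single shFOXO33 array without OHT stands highest for CXCL8 at 488.

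**Figure D2:**
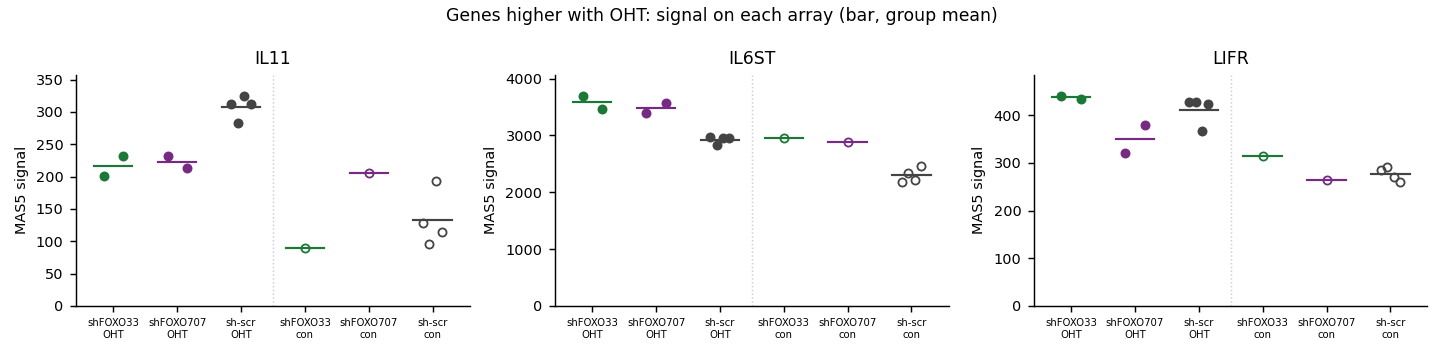
MAS5 signal (linear units, axis from 0) of IL11, IL6ST and LIFR on each array, 1 point per array, filled with OHT and open without it; horizontal bars are group means. The scrambled arrays with OHT (IL11, 282 to 325) lie above those without OHT (96.2 to 194), and the knockdown arrays with OHT (201 to 232) lie between them for IL11.

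In knockdown cells the response to OHT was measured on 4 arrays with OHT and 2 without. LIFR and IL6ST rose, ACKR3, EDN1, LIF, CCL2, CXCL8 and IL6 fell, and IL11 did not pass the test, so 2 of 9 genes were higher and 6 lower, where 38.6% of all genes were called (13.5% higher, 25.0% lower). With each array centred on its median, the calls over all genes were 2329 higher and 1753 lower, against 1619 higher and 2995 lower as deposited. Quantile normalization gave 1840 higher and 2453 lower. LIF had signals of 19.1 and 51.3 with shFOXO33 and OHT and 56.5 and 42.2 with shFOXO707 and OHT, against 359 with shFOXO33 and 731 with shFOXO707 without OHT. All 4 knockdown arrays with OHT were far below both arrays without it. LIF fell by 3.24 ± 0.32 (SE; adjusted p = 2.31e-06, limma). ACKR3 fell by 3.44 ± 0.31 (adjusted p = 9.02e-07, limma), EDN1 fell by 3.07 ± 0.21 (adjusted p = 5.35e-08) and CCL2 fell by 2.62 ± 0.26 (adjusted p = 2.23e-06).

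EDN1 had 22.8 and 25.7 with shFOXO33 and OHT and 11.4 and 27.5 with shFOXO707 and OHT, against 343 with shFOXO33 and 256 with shFOXO707 without OHT. The arrays with and without OHT did not overlap. CCL2 had 1.62 and 2.25 with shFOXO33 and OHT and 1.57 and 1.22 with shFOXO707 and OHT, against 128 with shFOXO33 and 66.2 with shFOXO707 without OHT. All 4 signals with OHT lay near 0. CXCL8 fell by 1.91 ± 0.51 (adjusted p = 0.00892, limma), but by 0.71 without the single shFOXO33 array without OHT (adjusted p = 0.255), and its other probe set gave -1.13 (adjusted p = 0.0649). IL6 fell by 0.88 ± 0.26 (adjusted p = 0.0159, limma), by 0.68 without the shFOXO707 array without OHT (adjusted p = 0.158) and by 0.65 with each array centred on its median (adjusted p = 0.0720).

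IL11 differed by 0.62 ± 0.26 between knockdown arrays with and without OHT (adjusted p = 0.0786, limma), and without the shFOXO707 array without OHT it rose by 1.16 (adjusted p = 0.00297). It also rose with each array centred on its median (0.85, adjusted p = 0.0194), with quantile normalization (0.84, adjusted p = 0.0187) and with the hairpins fitted as separate groups (0.62, adjusted p = 0.0129). By hairpin, in comparisons added after the values had been seen, IL11 rose by 1.14 with shFOXO33 (adjusted p = 0.00319, limma) and by 0.92 on its other probe set (adjusted p = 0.00474). With shFOXO707, IL11 gave 0.10 (adjusted p = 0.820) and -0.22 (adjusted p = 0.509) on these probe sets. The difference in response between shFOXO707 and shFOXO33 cells was -1.04 (95% interval -1.84 to -0.24, adjusted p = 0.313) and -1.14 (-1.81 to -0.46, adjusted p = 0.163), and neither was called. LIFR rose by 0.42 ± 0.13 (adjusted p = 0.0219, limma), with adjusted p = 0.203 without the shFOXO707 array without OHT, 0.0515 without shFOXO33 OHT array 1 and 0.0512 without shFOXO33 OHT array 2. IL6ST rose by 0.27 ± 0.064 (adjusted p = 0.00420, limma).

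The interaction, which sets the OHT response of knockdown cells against that of scrambled cells, was called for 0 of the 9 genes, where 0.159% of all genes were called, and limma gave 0 of the 9 an unadjusted p under 0.05. The differences in response were -0.72 for CXCL8 (95% interval -2.12 to 0.68), -0.16 for IL6 (-0.88 to 0.55), -0.12 for LIFR (-0.48 to 0.23) and -0.074 for IL6ST (-0.25 to 0.10). They were 0.54 for ACKR3 (95% interval -0.32 to 1.41), 0.42 for EDN1 (-0.16 to 1.01), -0.26 for LIF (-1.16 to 0.64), -0.60 for CCL2 (-1.33 to 0.12) and -0.53 for IL11 (-1.25 to 0.18). These intervals are wide, and a p that misses the threshold does not show that the responses were alike.

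The knockdown comparisons asked what the FOXO hairpins changed at each OHT state. With OHT, 1 of 9 genes, IL6ST, was called higher and 0 lower, where 11.9% of all genes were called (7.60% higher, 4.26% lower). IL6ST gave 3701 and 3468 with shFOXO33 and 3386 and 3562 with shFOXO707, against 2970, 2823, 2961 and 2952 in scrambled cells. All 4 knockdown arrays lay above all 4 scrambled arrays. IL6ST rose by 0.27 ± 0.053 (adjusted p = 0.00484, limma). Without OHT it was also the one gene called, 1 of 9 where 3.78% of all genes were called (2.21% higher), with 2961 for shFOXO33 and 2878 for shFOXO707, against 2176, 2344, 2221 and 2467 in scrambled cells. Both knockdown arrays were above the scrambled ones. IL6ST rose by 0.34 ± 0.064 there (adjusted p = 0.0105, limma), and its adjusted p was 0.0569 without the shFOXO33 array and 0.0618 with no trend in the variance prior.

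The 5 probe sets of IL6ST did not behave alike in the knockdown. With OHT, the leading 212195_at was the only one called when the hairpins were pooled. The probe sets 211000_s_at, 204863_s_at and 204864_s_at gave 0.29 (211000_s_at, adjusted p = 0.0886), 0.29 (204863_s_at, adjusted p = 0.0856) and 0.10 (204864_s_at, adjusted p = 0.743), whereas 212196_at gave -0.17 (adjusted p = 0.127). On 212196_at the signals were 684 and 735 with shFOXO33 and 693 and 807 with shFOXO707, against 870, 772, 826 and 825 in scrambled cells with OHT. The shFOXO33 arrays lay below all scrambled arrays, and one shFOXO707 array lay among them. With shFOXO33 alone, 212196_at fell by 0.21 (adjusted p = 0.0355, limma) while 212195_at rose by 0.29 (adjusted p = 0.000842). On 211000_s_at both shFOXO33 arrays with OHT, at 799 and 790, lay above the scrambled arrays, at 540 to 667. On 204863_s_at they also lay above, at 743 and 866 against 553 to 667. When the probe sets of a gene were averaged, the IL6ST difference was 0.16 with OHT (adjusted p = 0.155) and 0.20 without OHT (adjusted p = 0.233). The plot of the 5 probe sets shows 212196_at on the other side of 0 from the rest with OHT.

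**Figure D3:**
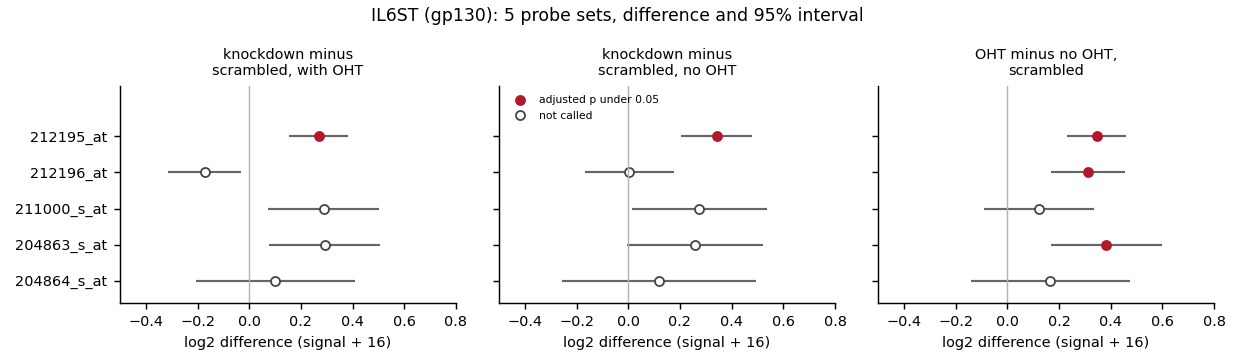
Difference (log2 of signal + 16, horizontal axis) of each of the 5 IL6ST probe sets in knockdown minus scrambled cells with OHT, knockdown minus scrambled cells without OHT, and OHT minus no OHT in scrambled cells; lines are 95% intervals and filled points have an adjusted p under 0.05. With OHT, 212195_at lies at 0.27 and 212196_at at -0.17 in the knockdown panel.

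The other 8 genes were not called in the pooled knockdown. With OHT, their differences ran from -0.46 (IL11, adjusted p = 0.203) to 0.69 (CXCL8, adjusted p = 0.351). For IL11, knockdown signals with OHT were 201 and 232 with shFOXO33 and 231 and 213 with shFOXO707, against 312, 282, 325 and 313 in scrambled cells. All 4 knockdown arrays were lower, and the groups did not overlap. On the other IL11 probe set the signals were 115 and 108 with shFOXO33 and 102 and 85.7 with shFOXO707, against 112, 129, 118 and 128 in scrambled cells, so the groups overlapped, and the difference was -0.22 (adjusted p = 0.513, limma). With the hairpins as separate groups in the fit, which leaves the spread between hairpins out of the error, IL11 fell by 0.46 (adjusted p = 0.0397, limma) and ACKR3 rose by 0.40 (adjusted p = 0.0484), so 3 of 9 genes were called. The share of all genes called in that fit is not given here, so this count has no background beside it. LIF had a difference of 0.00064 (95% interval -0.57 to 0.57). Without OHT, the largest difference was that of CXCL8, 1.41 (adjusted p = 0.181, limma), and it was called at 2.61 (adjusted p = 0.00662) without the shFOXO707 array and at 1.41 with the hairpins as separate groups (adjusted p = 0.00938). IL6 had 65.4 with shFOXO33 and 90.6 with shFOXO707, against 40.3, 37.8, 54.9 and 51.8 in scrambled cells. Both knockdown arrays were higher, and the difference of 0.59 was not called (adjusted p = 0.287, limma).

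**Figure D4:**
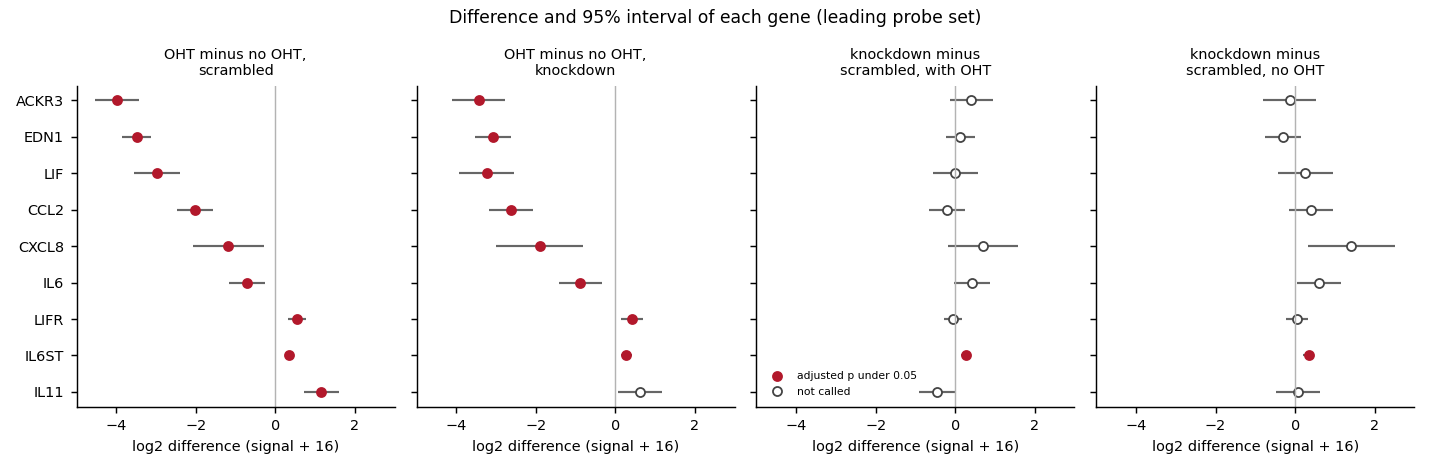
Difference (log2 of signal + 16, horizontal axis) of each gene's leading probe set for OHT minus no OHT in scrambled and in knockdown cells and for knockdown minus scrambled cells with and without OHT; lines are 95% intervals, filled points have an adjusted p under 0.05. The OHT panels run from -3.98 (ACKR3, scrambled) to 1.16 (IL11, scrambled), and in the knockdown panels only IL6ST is filled.

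With OHT and the hairpins apart, shFOXO33 against scrambled cells gave 2 of 9 genes higher, where 29.7% of all genes were called (16.3% higher), and shFOXO707 gave 2 of 9 higher, where 24.3% were called (14.1% higher). IL6ST rose with both, by 0.29 (adjusted p = 0.000842, limma) with shFOXO33 and by 0.25 (adjusted p = 0.00380) with shFOXO707. The shFOXO707 value had an adjusted p of 0.0610 without shFOXO707 OHT array 2. IL6 gave 48.8 and 42.0 with shFOXO33, against 14.8, 21.5, 20.0 and 32.4 in scrambled cells with OHT. Both shFOXO33 arrays were above the scrambled arrays. IL6 rose by 0.70 (adjusted p = 0.0448, limma), and the adjusted p was 0.0619 with each array centred on its median, 0.0663 with quantile normalization, 0.0579 with a pseudocount of 1, 0.225 and 0.116 without shFOXO33 OHT array 1 or 2, and 0.100, 0.0737 and 0.0803 without scrambled OHT array 1, 2 or 3.

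ACKR3 differed between the hairpins. With OHT it gave 104 and 94.0 with shFOXO707, against 37.1, 63.3, 48.7 and 49.4 in scrambled cells. Both shFOXO707 arrays were above all 4 scrambled arrays. ACKR3 rose by 0.83 (adjusted p = 0.00265, limma) with shFOXO707, against scrambled signals that lay below 79.1. It gave 104 and 94.0 with shFOXO707, against 35.6 and 64 with shFOXO33. The hairpins did not overlap, and ACKR3 was higher by 0.84 in shFOXO707 than in shFOXO33 cells (adjusted p = 0.00566, limma), where 2 of 9 genes were called and 25.6% of all genes. Without shFOXO33 OHT array 1 the value was 0.52 (adjusted p = 0.0863). Even in shFOXO707 cells with OHT, ACKR3 stayed well below the 1332 of the shFOXO707 array without OHT. LIFR gave 321 and 380 with shFOXO707, against 442 and 435 with shFOXO33. The hairpins did not overlap. LIFR was lower by 0.32 in shFOXO707 cells (-0.32, adjusted p = 0.0446, limma), with adjusted p = 0.160, 0.125 and 0.323 without shFOXO33 OHT array 1, shFOXO33 OHT array 2 or shFOXO707 OHT array 1, and 0.0637 with no trend in the variance prior. The ratio of 3' to 5' actin probe signal, a measure of RNA integrity, was 1.95 to 2.04 on the shFOXO707 OHT arrays and 1.49 to 1.74 on the other 12. The same ratio for GAPDH overlapped, at 1.04 to 1.11 on the shFOXO707 OHT arrays and 0.983 to 1.1 on the other 12. The summed fibroblast markers were 3813 to 4372 and the epithelial ones 3469 to 3556 with shFOXO707 and OHT, against 2934 to 3170 and 5154 to 5436 in scrambled cells with OHT. The markers of a list did not move together: of 5 fibroblast markers LUM (0.50) and PDGFRA (0.61) rose and COL1A2 (-0.71) and FAP (-0.75) fell, and of 5 epithelial markers KRT18 (-0.71) and KRT8 (-0.68) fell and EPCAM (0.56) rose. The shFOXO707 OHT arrays also entered the pooled knockdown comparisons with OHT and the IL6ST and IL11 results of shFOXO707. The part of RNA integrity and of these markers in the ACKR3, LIFR, IL6ST, IL11 and pooled results was not tested.

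Without OHT each hairpin had 1 array, so the spread came from the other groups, and these comparisons were added after the values had been seen. CXCL8 gave 488 with shFOXO33, against 73.5, 75.6, 55.2 and 64.4 in scrambled cells. The shFOXO33 array was the highest of all 14 arrays. CXCL8 rose by 2.61 (adjusted p = 0.000701, limma), and its other probe set rose by 1.98 (adjusted p = 0.0133), with 114 against 31.5, 21.6, 21.5 and 1.57. For shFOXO33 against scrambled cells 2 of 9 genes, CXCL8 and IL6ST, were called higher, where 16.6% of all genes were called (7.87% higher), and for shFOXO707 1 of 9, IL6ST, where 15.3% were called (8.16% higher). With shFOXO33 the other IL11 probe set fell by 0.68 (adjusted p = 0.0376), while the leading one gave -0.47 (adjusted p = 0.252). With shFOXO707 the CXCL8 signal was 80.5, and CXCL8 was lower by 2.39 in shFOXO707 than in shFOXO33 cells (-2.39, adjusted p = 0.00759, limma), a call that a pseudocount of 1 removed (-2.59, adjusted p = 0.0963). The other CXCL8 probe set gave -1.24 (adjusted p = 0.231), which was not called. With OHT, CXCL8 gave 34.1 and 68.0 with shFOXO33, and the difference in OHT response between shFOXO707 and shFOXO33 cells was not called (2.10, 95% interval 0.69 to 3.52, adjusted p = 0.225), although a pseudocount of 64 gave 1.78 (adjusted p = 0.0237).

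Between the hairpins without OHT, IL11 and ACKR3 were higher and CXCL8 lower in shFOXO707 cells, 3 of 9 genes where 16.8% of all genes were called. IL11 gave 206 with shFOXO707, against 89.0 with shFOXO33, a difference of 1.08 (adjusted p = 0.0275, limma), and its other probe set gave 112 against 51.6, a difference of 0.92 (adjusted p = 0.0269). ACKR3 gave 1332 with shFOXO707, against 630 with shFOXO33, a difference of 1.06 (adjusted p = 0.0186, limma). The scrambled arrays lay between these for ACKR3, at 972 to 1102, and for IL11 at 96.2 to 194. The ACKR3 and IL11 calls were lost at a pseudocount of 1 (ACKR3, adjusted p = 0.0509) and with no trend in the variance prior (IL11, adjusted p = 0.0645). Some osteoblast and fibroblast markers also moved with shFOXO33. The summed osteoblast signal was 11100 on its array without OHT, against 19650 to 20060 in scrambled cells, and 8946 to 9099 with OHT, against 16990 to 17850. SPARC, a bone matrix protein gene, gave -2.18 without OHT and -3.43 with OHT (adjusted p = 4.09e-10 and 3.21e-14, limma), whereas ALPL rose at each OHT state (adjusted p = 0.0357 without OHT and 0.000928 with OHT, limma). Of the 7 osteoblast markers 1 was higher, 2 lower and 4 not called at each OHT state, so the list did not move together. The summed fibroblast signal was 1855 with shFOXO33 without OHT, against 2988 to 3404 in scrambled cells, and 1228 to 1312 with OHT, against 2934 to 3170. Of the 5 fibroblast markers LUM and PDGFRA fell at each OHT state, and 3 were not called. Blood cell and endothelial markers stayed low, with sums of at most 268 and 224.3 over 6 genes each and 0 of 6 above the 40th percentile in both, and the part of the marker differences in the CXCL8, IL11, ACKR3 and shFOXO33 IL6 results was not tested.

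The genes around these members in their pathways were counted from lists, with OHT in scrambled cells first. In JAK-STAT signalling and its inhibitors, 7 of 23 genes rose and 6 fell, where 17.0% of all genes rose and 33.0% fell, with the SOCS3 feedback inhibitor (2.14, adjusted p = 9.80e-08, limma), the kinase JAK2 (1.74, adjusted p = 2.55e-07) and the inhibitor CISH (1.42, adjusted p = 1.72e-05) rising and SOCS5 (-1.59, adjusted p = 2.01e-07) falling. STAT3 itself, singled out after its values were seen, fell by 1.37 (adjusted p = 6.78e-07), with signals of 501 to 633 with OHT, against 1459 to 1598 without OHT. Among genes described as STAT3 targets, 7 of 15 rose and 3 fell, CEBPD (2.40) and IRF1 (1.65) rising and BCL6 (-2.35) and MYC (-1.75) falling. Their list median was 0.24, against -0.17 over all genes. With each array centred on its median, the counts were 10 higher and 4 lower for the JAK-STAT list and 8 higher and 3 lower for the STAT3 target list. Over all 11963 genes they were then 2894 higher and 2496 lower. Quantile normalization gave 9 higher and 5 lower for the JAK-STAT list and 8 higher and 3 lower for the STAT3 target list. Over all genes it gave 2336 higher and 3306 lower.

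The counts below stand beside 17.0% of all genes higher and 33.0% lower with OHT in scrambled cells. With each array centred on its median, 2894 of all 11963 genes were higher and 2496 lower. Of the other receptors of the interleukin-6 family, 1 of 5 rose (CNTFR, 0.56, adjusted p = 0.00341, limma) and 1 fell (OSMR, the oncostatin M receptor, -1.24, adjusted p = 1.12e-05). By limma, 0 of the 4 other ligands on the array were called, with 0 of them above the 40th percentile. In the endothelin system, 3 of 8 genes rose and 0 fell: the converting enzyme ECE1 (1.33, adjusted p = 3.68e-06), FURIN (1.02, adjusted p = 5.38e-07) and ECE2 (0.52, adjusted p = 0.0345). The ECE2 call was lost without scrambled no-OHT array 2 (adjusted p = 0.103) or 3 (0.0732) and without scrambled OHT array 2 (0.111) or 3 (0.101). EDN1 fell in the same cells. Other chemokines gave 0 higher and 3 lower of 22, CCL20 (-2.22, adjusted p = 1.69e-05), CXCL14 (-1.41, adjusted p = 0.00134) and CX3CL1 (-1.12, adjusted p = 0.00207, but -0.60 and 0.168 with probe sets averaged), and 1 of the 22 lay above the 40th percentile. With each array centred on its median, 1 of the 22 rose and 3 fell. Among other chemokine receptors 0 of 17 rose and 5 fell, with 0 above the 40th percentile, and with each array centred on its median 1 rose and 1 fell. Of other inflammatory cytokines and inducers 2 of 16 rose and 4 fell, among them the interleukin-1 receptor IL1R1 (2.59, adjusted p = 3.87e-11) upwards and IL15 (-2.06, adjusted p = 1.62e-06) and TGFB2 (-1.35, adjusted p = 4.32e-07) downwards. With each array centred on its median, 4 of these 16 rose and 3 fell. Quantile normalization gave 2 higher and 3 lower for these 16. It gave 0 higher and 3 lower for the other chemokines, and the same counts for the other chemokine receptors. Over all genes it gave 2336 higher and 3306 lower, so the 2 scalings differed in the balance of calls.

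**Figure D5:**
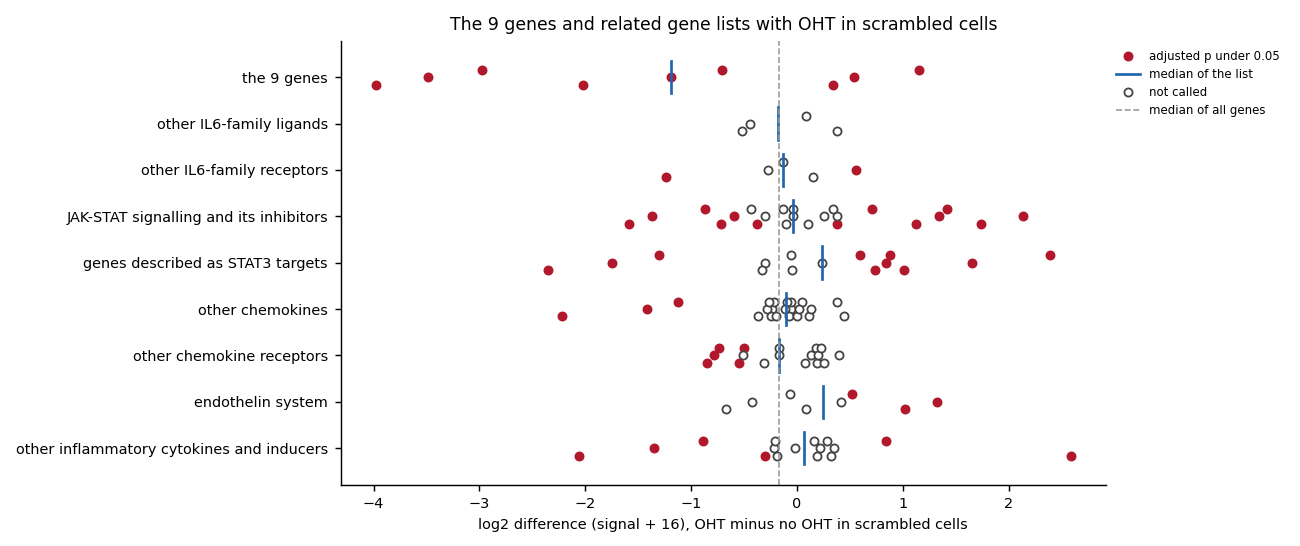
Difference (log2 of signal + 16, horizontal axis) with OHT in scrambled cells for each of the 9 genes and for the genes of 8 related lists; filled points have an adjusted p under 0.05, the blue line is the median of a list and the dashed line the median of all genes (-0.17). The 9 genes have a median of -1.19, and the median of STAT3 target genes is 0.24.

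In knockdown against scrambled cells with OHT, the JAK-STAT list gave 3 of 23 higher and 1 lower, the STAT3 target list 0 of 15 higher and 2 lower, and the endothelin list 1 of 8 higher, where 7.60% of all genes were higher and 4.26% lower. The endothelin gene was FURIN, which rose by 0.68 with OHT (adjusted p = 0.000463, limma) and by 1.14 without OHT (adjusted p = 9.70e-05). STAT3 rose by 0.46 in knockdown cells with OHT (adjusted p = 0.0392), and the call was lost with each array centred on its median (0.43, adjusted p = 0.0551) and without any 1 of 7 of the 8 arrays with OHT (adjusted p = 0.0559 to 0.121). PIAS1 rose by 0.44 (adjusted p = 0.000518), PIAS4 rose by 0.44 (adjusted p = 0.00734) and PIAS3 fell by 0.38 (adjusted p = 0.00239), all 3 genes encoding inhibitors of activated STATs. Of the inflammatory list, 4 of 16 rose and 1 fell with OHT, with TGFB1 (0.46, adjusted p = 0.00371) higher and TGFB2 (-0.67, adjusted p = 0.00309) lower, although averaging the probe sets of TGFB1 removed its call (adjusted p = 0.0668).

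Genes whose signal ran most like a member's were found by Pearson's r over the 14 arrays, in 6 groups, among 7714 genes. The arrays share the OHT contrast, so r is a description, with no p. For LIF the nearest were MOSPD1 (r = 0.9922), DNAJB4 (0.9881) and ANKRD46 (0.9880). For ACKR3 they were ST6GALNAC5 (0.9965), ANKRD46 (0.9961) and ZNF330 (0.9951), and for EDN1 they were SEC24B (0.9922), ZNF593 (0.9918) and ANKRD1 (0.9917). IL11 had lower values, led by PPP3CC (0.9423), and IL6ST was nearest to CREBBP (0.9704) and LIFR to PCNT (0.9675).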

How the data were processed

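RNA of 14 samples was measured on 1 Affymetrix array each. The authors deposited linear intensity values. The submitters' processing notes name MAS5, with no version in the sources used here, and each array had a mean of 500 after the lowest and highest 2% of probe sets were left out. Probe sets were named through the platform annotation with symbols updated from RefSeq: of 22277, 62 were controls, 19064 named 1 gene, 1043 several and 2108 none. Here log2(signal + 16) was fitted with limma 3.58.1 in R 4.3.3 (lmFit, eBayes with trend) over all 22215 other probe sets, without a filter, in 4 groups with hairpins pooled, or in 6 groups for single hairpins. Tests were two-sided, with Benjamini-Hochberg adjustment over all probe sets, and the script was tested on simulated data. Arrays of 1 hairpin counted as separate replicates, so pooled knockdown calls can be too many. Comparisons that share control arrays are not independent.

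Members and lists were chosen with earlier results of these data known. From each list at most the 4 largest called changes are named, and for each member above the 40th percentile the 3 genes with the highest correlation. Replicate numbers did not pair arrays: the deviations of same-numbered arrays correlated between -0.016 and 0.017. Alternatives were other pseudocounts (1, 64), centring, quantile normalization, the filter, no trend, averaged probe sets, other groupings, single arrays left out and replicate blocks. The number of arrays limits the precision.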

Additional observations from a re-analysis of the deposited data

Results flagged for a closer look

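In 30 groups of 4 scrambled arrays tested (15 probe sets, with and without OHT), 5 had 1 array far from the other 3, and chance flags about 1 in 20. With OHT these were IL6ST at 2823, LIFR at 367 and EDN1 at 12.1, each below the others. Without OHT they were CCL2 at 39.3, below the others, and ACKR3 at 1102, above them.

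The hairpins differed in some genes. With OHT, in shFOXO707 minus shFOXO33 cells, LIFR differed by -0.32 and ACKR3 by 0.84. Without OHT, on 1 array per hairpin, IL11 differed by 1.08 and 0.92 on its 2 probe sets, CXCL8 by -2.39 and ACKR3 by 1.06. All 6 had an adjusted p under 0.05 in limma, and the comparisons without OHT were chosen after seeing the data.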

How the results depend on the processing

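Of 2326 recomputed values of single genes, 2087 kept their direction and their side of the threshold, 181 lost the call, 24 gained it and 34 reversed. The cause of these changes was not tested. The number of the 9 genes called with OHT was 9 in scrambled and 8 in knockdown cells. In knockdown cells it was 5 when only probe sets above the 40th percentile were kept, since IL6, CXCL8 and CCL2 are then not tested. This filter left 6 genes to test in scrambled cells too. LIF, ACKR3 and EDN1 had means of 42.1, 49.6 and 18.4 in scrambled cells with OHT, against 428, 1012 and 369 without OHT. They passed the filter through their signals without OHT, so their calls under it are no separate support. The share of all genes called is not given here for these alternative settings, so their counts have no background beside them. Knockdown with OHT (1 gene) gave 0 with probe sets averaged, 3 with 6 groups, and 2 with only shFOXO33 or only shFOXO707. Knockdown without OHT (1 gene) gave 0 with no trend and with probe sets averaged, and 2 with 6 groups and with only shFOXO33. shFOXO33 with OHT (2 genes) gave 1 under median centring, quantile normalization and a pseudocount of 1, shFOXO707 with OHT (2 genes) gave 1 with probe sets averaged, and the hairpin difference with OHT (2 genes) gave 1 with no trend.

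Leaving out single arrays gave 8 to 9 genes with OHT in scrambled cells, 7 to 8 in knockdown cells, 1 to 1 for knockdown with OHT, 0 to 2 without OHT, 0 to 0 for the interaction, 1 to 2 for shFOXO33, 1 to 3 for shFOXO707 and 0 to 2 for the hairpin difference. With the replicate block, 9 genes were called with OHT in scrambled cells. On arrays with OHT numbered 1 and 2 it left 0 for the knockdown, 1 for shFOXO33, 1 for shFOXO707 and 0 for the hairpin difference. The same arrays without the block, a setting chosen after seeing the data, gave 0, 2 and 1 for the first 3.

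Reversed values were of genes not called, except CEBPD in knockdown with OHT (0.025 with probe sets averaged). In knockdown with OHT, LIF gave -0.031 under median centring, -0.037 under quantile normalization and -0.013 at a pseudocount of 1. With only shFOXO33, LIF gave -0.21, LIFR 0.091 and ACKR3 -0.016. Without single arrays, LIF ran from -0.12 to 0.23 and LIFR from -0.12 to 0.024. In knockdown without OHT, IL11 gave -0.074 with probe sets averaged. With only shFOXO33, LIF gave -0.24 and IL11 -0.47, and with only shFOXO707, LIFR gave -0.060, CCL2 -0.0059 and ACKR3 0.39. Without single arrays, LIF ran from -0.24 to 0.76, IL11 from -0.47 to 0.61, LIFR from -0.060 to 0.17, CCL2 from -0.0059 to 0.80 and ACKR3 from -0.67 to 0.39. In the interaction, only shFOXO33 gave LIF 0.030 and IL6 0.30, and only shFOXO707 gave CXCL8 0.33. Without single arrays, CXCL8 ran from -1.91 to 0.47, LIF from -0.75 to 0.24, IL11 from -1.07 to 0.0056 and IL6 from -0.36 to 0.031. With shFOXO707, the IL11 response to OHT was -0.059 with probe sets averaged.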
